A study of Homo sapiens with 8 samples.

Results

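The sites described are all listed ATAC-seq sites on human chromosomes 19 and 22 in the authors' 2 lists of regions whose accessibility changed. ATAC-seq uses the Tn5 transposase to tag open DNA. There were 335 such sites among 14191 in all, 212 on chromosome 19 and 123 on chromosome 22. They were chosen by chromosome and by membership in either list, and the chromosomes were picked from among 23 after the split between the lists had been seen, so that split is given as a description and was not tested. Positions are 1-based, on hg19.

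The cells were H9, a line of human embryonic stem cells, and formed 4 groups of 2 samples. Wild-type cells were taken as stem cells at day 0 and as surface ectoderm at day 7, after differentiation with RA (retinoic acid, 1 uM) and BMP4 (5 ng/ml). Cells of genotype p63-/- received the same treatment and were also taken at day 7. A TetO:Tp63+/- line, called p63GOF, was taken at day 0 after doxycycline at 2 ug/ml for 2 days, and no list analysed here belongs to it. The sources used here do not say whether each edited line is a single clone. The list of opened sites (8154) is named for opening by the morphogens and is attached to wild-type cells at day 0 and day 7. The list of p63-closed sites (6037) is named for opening by the morphogens and closing by p63, and is attached to wild-type and p63-/- cells at day 7. Each list gives positions and numbered names only, so there was no value per sample, the read depth is unknown, and no difference between cultures could be tested.

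Surface ectoderm is the simple epithelium that gives rise to epidermis. Retinoic acid acts through nuclear receptors and BMP4 through SMAD proteins, and together they move pluripotent cells toward this fate. p63, encoded by TP63, is a transcription factor of the p53 family that is required for stratified epithelia. Chromosome 19 is known for its high gene content and for large tandem clusters of KRAB zinc finger genes, many of whose products repress transposable elements. Chromosome 22 has an acrocentric short arm, and its long arm carries developmental genes such as TBX1, SOX10, PDGFB and WNT7B.

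The label of gene-dense chromosomes was checked against the RefSeq gene table (GRCh38.p14), of which only gene names, chromosomes and gene order were used. Chromosome 19 held 1451 protein-coding genes and ranked 1 of 23 chromosomes in genes per Mb between the first and last listed site. Chromosome 22 held 451, or 13.5 per Mb, and ranked 3. Chromosome 17, with 14.4 per Mb, ranked 2, and the other 21 chromosomes together held 6.37 per Mb. Chromosome 19 carried 250 of the 518 protein-coding genes whose symbol begins with ZNF, and chromosome 22 carried 4.

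Listed sites were sparse on both chromosomes. Chromosome 19 held 3.65 listed sites per Mb and chromosome 22 held 3.67, against 4.89 on the other 21 chromosomes, and only chromosomes X and 16 lay below them. Listed sites covered 0.611% of the listed span of chromosome 19 and 0.616% of that of chromosome 22, against 0.824% elsewhere. The gene-poor chromosomes 13 and 18 together held 5.72 sites per Mb with 3.53 protein-coding genes per Mb.

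The lower number lay in the p63-closed list more than in the opened list. The numbers in the site names run along each chromosome as if both lists were drawn from 1 numbered catalogue, and densities below are per 1000 of these entries. On chromosome 19 there were 151 opened sites, or 4.80 per 1000 entries (exact 95% Poisson interval 4.07 to 5.63). On chromosome 22 there were 95, or 4.41 (3.56 to 5.39). The other 21 chromosomes had 4.45 (4.35 to 4.55). The ratio to these others was 1.08 on chromosome 19 (0.912 to 1.27) and 0.990 on chromosome 22 (0.800 to 1.21), so neither opened density differed from that elsewhere beyond counting error. By base pairs the ratio on chromosome 19 was 0.933, since its catalogue is sparser there, with 1 entry per 1.84 kb against 1.60 kb elsewhere.

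The p63-closed sites were fewer on both chromosomes. Chromosome 19 held 61, or 1.94 per 1000 entries (1.48 to 2.49), and chromosome 22 held 28, or 1.30 (0.863 to 1.88), against 3.35 (3.26 to 3.43) on the other 21. The ratios were 0.580 (0.443 to 0.745) and 0.388 (0.258 to 0.561). Among the 23 chromosomes only X had fewer p63-closed sites per entry than chromosome 22, and chromosome 19 came next. All intervals here cover counting error only, and they take each site as separate although neighbours can change together.

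The p63-closed list therefore made up a small part of the sites here, 28.8% on chromosome 19 (exact 95% Clopper-Pearson interval 22.8 to 35.4%) and 22.8% on chromosome 22 (15.7 to 31.2%). Among all listed sites the share was 42.5%. On the other 20 autosomes it ran from 34.3% to 54.4%, with a median of 43.3%, and on chromosome X it was 7.39%. Chromosome 21, close in size to chromosome 22, had the lowest of these, 34.3% (27.3 to 41.8%), and its interval overlapped those of both chromosomes. Chromosome 20, close in size to chromosome 19, had 41.4% (35.6 to 47.4%), and its interval did not overlap either. The gene-poor chromosomes 13 and 18 differed, with 46.8% (42.6 to 51.1%) and 34.7% (30.2 to 39.4%), and the interval of chromosome 18 overlaps those of chromosomes 19 and 22. Chromosome 17, which lies between chromosomes 19 and 22 in gene density, had 45.8% (40.3 to 51.4%), above the share of all listed sites. A low p63-closed share was thus not shared by all gene-dense chromosomes.

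**Figure D1:**
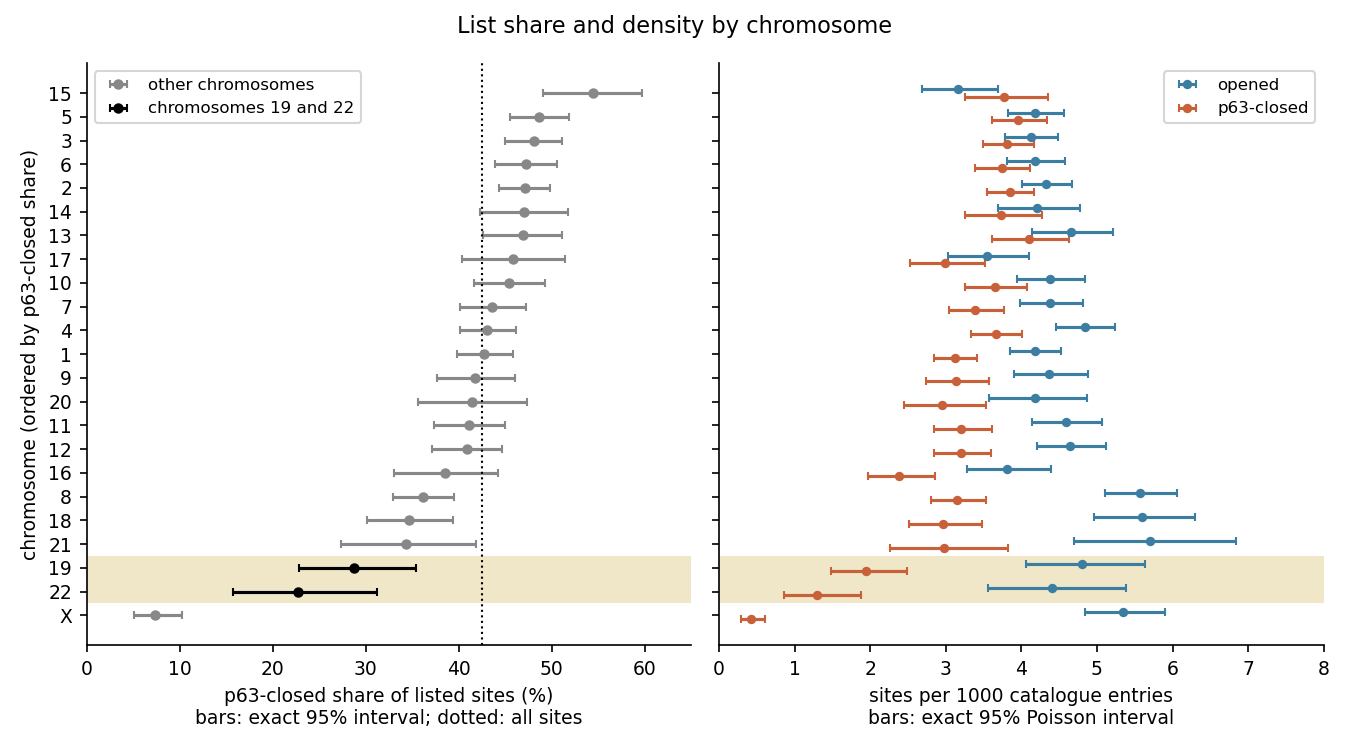
The left panel plots the p63-closed share of listed sites in percent, and the right panel the sites of each list per 1000 catalogue entries, for the 23 chromosomes, with exact 95% intervals as bars. Chromosomes 19 (28.8%) and 22 (22.8%), shaded, lie below every other autosome in share, while their opened densities of 4.80 and 4.41 lie within the range of the others.

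Along chromosome 19 the p63-closed sites were gathered in a few places. In bins of 5 Mb, 9 of 12 had a share below the 42.5% of all listed sites. The lowest, from 15 to 20 Mb, held 10 opened and 1 p63-closed site (9.09%). The first bins held 11 and 2 (to 5 Mb) and 13 and 2 (from 5 to 10 Mb). From 25 to 30 Mb, a bin that holds most of the pericentromeric gap, there were 5 and 1. These bins were poor in p63-closed sites while the opened sites went on.

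The 3 remaining bins had a higher share than the genome. From 10 to 15 Mb there were 6 opened and 5 p63-closed sites (45.5%). From 20 to 25 Mb there were 11 and 12 (52.2%, exact 95% interval 30.6 to 73.2%), and from 55 to 60 Mb 10 and 12 (54.5%, 32.2 to 75.6%). The latter 2 bins held 6.41 and 6.27 p63-closed sites per 1000 entries, against 0.317 in the lowest bin. With at most 26 sites in a bin the intervals are wide.

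The middle of the long arm held the fullest bins of opened sites. There were 19 opened and 6 p63-closed sites from 30 to 35 Mb, 21 and 5 from 35 to 40 Mb, 17 and 4 from 40 to 45 Mb, and 14 and 3 from 45 to 50 Mb. From 50 to 55 Mb there were 14 and 8. The highest opened density of the chromosome, 7.35 per 1000 entries, was in the bin from 35 to 40 Mb. The arms, separated at the longest interval without a listed site (24284939 to 28594392), had similar shares, 30.1% of 73 sites on the short arm (19.9 to 42.0%) and 28.1% of 139 on the long arm (20.8 to 36.3%).

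On chromosome 22 all 8 bins with a site lay below 42.5%. The first bin, from 15 to 20 Mb, held 9 opened and 0 p63-closed sites, which allows a share of up to 33.6% by the exact interval, and the last, from 50 to 55 Mb, held 5 and 0 (up to 52.2%). Between them the counts were 14 and 4, 12 and 6, 11 and 5, 13 and 2, 17 and 6, and 14 and 5, in order along the chromosome. The highest share was 33.3% of 18 sites (13.3 to 59.0%), from 25 to 30 Mb. By count, no bin of chromosome 22 had the even mix seen in parts of chromosome 19. The interval of this highest share overlaps those of the mixed bins of chromosome 19, so the bins were not told apart. Elsewhere, 289 of 563 bins with at least 3 sites lay below 42.5%. Bins without a p63-closed site numbered 2 of 8 on chromosome 22, 0 of 12 on chromosome 19 and 31 of 571 elsewhere, or 17 of 540 on the other 20 autosomes.

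**Figure D2:**
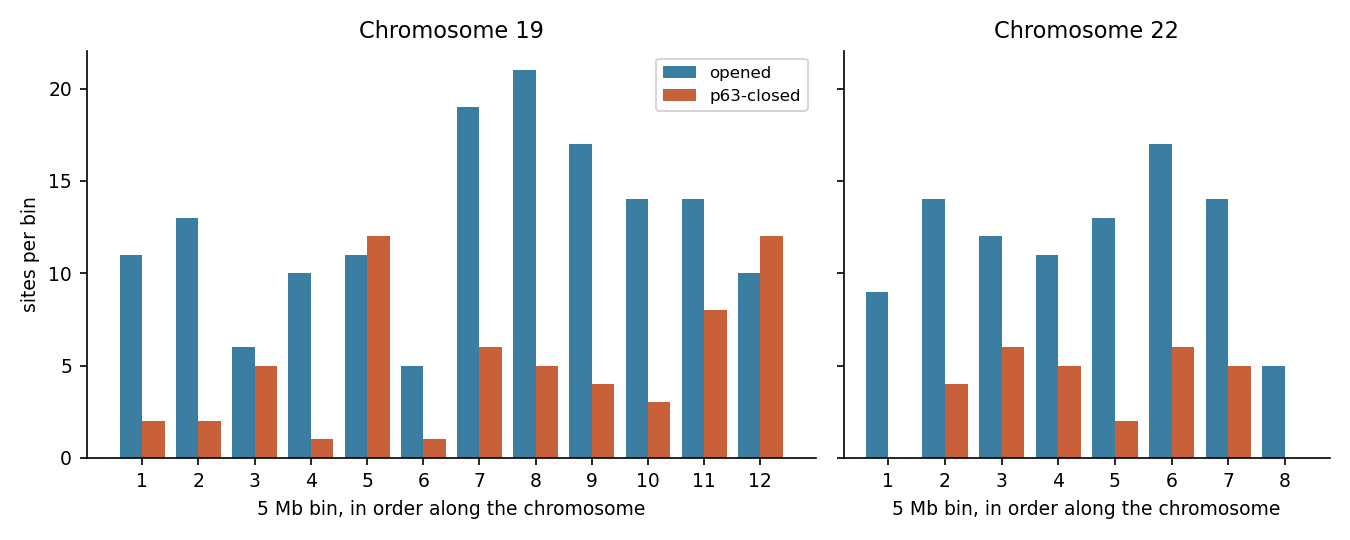
Bars give the number of opened and p63-closed sites in each 5 Mb bin, in order along chromosomes 19 (12 bins) and 22 (8 bins). The p63-closed bars reach 12 in the fifth and the last bin of chromosome 19 and do not pass 6 on chromosome 22.

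The ends of the chromosomes went opposite ways. In the last 5 Mb before the final site, chromosome 19 had 14 opened and 12 p63-closed sites (46.2%, 26.6 to 66.6%), against 26.3% of the 186 sites before it. Chromosome 22 had 15 and 2 there (11.8%, 1.46 to 36.4%), against 24.5% of the 106 sites before it. In both cases the intervals of the end and the rest overlap.

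The places rich in p63-closed sites were then set beside the zinc finger gene clusters of chromosome 19. These were given as 7 stretches, each bounded by a pair of zinc finger genes, with positions on hg19 taken from general knowledge to the nearest 0.1 Mb and not from an annotation of that build. The bounds were written after the sites had been seen. Between the bounding genes the gene table lists 258 protein-coding genes, 208 of them with a ZNF symbol, against 42 of 1193 on the rest of the chromosome.

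These stretches held 36 of the 61 p63-closed sites of chromosome 19 (59.0%) and 40 of its 151 opened sites (26.5%), in 13.5 of its 58.0 Mb. The p63-closed share was 47.4% inside (35.8 to 59.2%) and 18.4% outside (12.3 to 25.9%). Because the bounds were written after the sites had been seen, this difference is a description and was not tested. The p63-closed density was 5.58 per 1000 entries inside (3.91 to 7.73) and 1.00 outside (0.647 to 1.48), or 2.68 and 0.561 sites per Mb. The opened density was 6.20 inside (4.43 to 8.45) and 4.44 outside (3.65 to 5.35), intervals that overlap. The densities outside the stretches had intervals that overlap those of chromosome 22 for both lists. With each stretch widened by 0.3 Mb at both ends the shares were 48.2% and 15.7%, and with each narrowed by 0.2 Mb they were 50.8% and 19.9%.

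**Figure D3:**
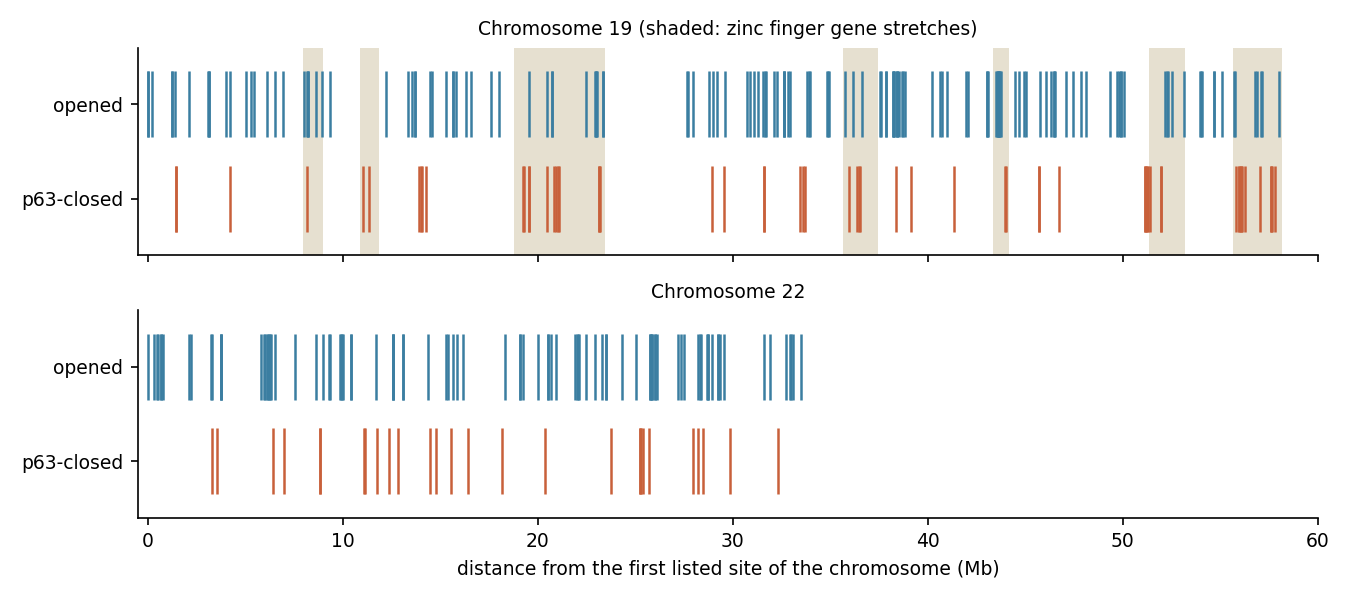
Each vertical line is 1 listed site, placed by its distance in Mb from the first listed site of its chromosome, with opened sites in the upper row and p63-closed sites in the lower row of each panel. Shading marks the 7 zinc finger gene stretches of chromosome 19, which hold 36 of its 61 p63-closed sites and 40 of its 151 opened sites.

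**Figure D4:**
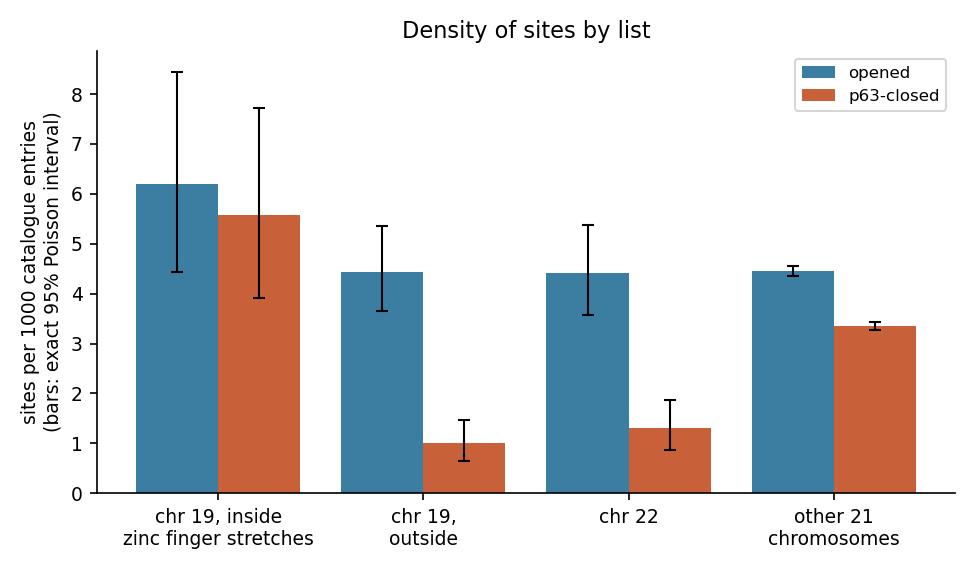
Bars give sites of each list per 1000 catalogue entries with exact 95% Poisson intervals, for chromosome 19 inside and outside the zinc finger stretches, chromosome 22 and the other 21 chromosomes. The p63-closed density is 5.58 inside the stretches, 1.00 outside them, 1.30 on chromosome 22 and 3.35 elsewhere.

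The majority list differed among the stretches by count. In 4 of the 7 the p63-closed sites outnumbered the opened ones, and in 3 the opened sites were more. Each stretch held only 2 to 23 sites, and the exact interval of every share includes the 47.4% of the 7 together. Their shares were therefore not told apart. The largest, from ZNF101 to ZNF254 beside the centromere, held 12 p63-closed and 11 opened sites between 20192359 and 24284938. Within it 4 p63-closed sites lay between 20192359 and 20496409 with 1 opened site among them. A further 4 lay between 21403915 and 21974141, with a row of 3 opened sites after the first of them. The next site, from 22005721 to 22007727, was p63-closed as well.

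The stretch from ZNF444 to ZNF132, near the end of the long arm, held 12 p63-closed and 7 opened sites (63.2%, 38.4 to 83.7%). A run of 7 p63-closed sites with no opened site between them lay there, from 56727863 to 57183691. The stretch from ZNF565 to ZNF573 held 4 p63-closed and 3 opened sites, and that from ZNF823 to ZNF791, where all 23 genes of the table are ZNF genes, held 2 p63-closed sites (11958068 to 11960417 and 12305218 to 12306854) and 0 opened ones.

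Opened sites prevailed in the other 3 stretches. The stretch from ZNF404 to ZNF180 held 8 opened and 2 p63-closed sites. Its opened sites lay between 44438461 and 44670320 with gaps of 18.7 to 66.2 kb, median 21.9 kb, and were 1400 to 2034 bp wide. In the gene table this stretch is an unbroken row of 19 ZNF genes, among them ZNF230, ZNF222, ZNF223, ZNF284, ZNF224, ZNF225, ZNF234 and ZNF226 side by side. Which gene each site belongs to was not determined. The stretch from ZNF558 to ZNF846 held 6 opened sites and 1 p63-closed site, and that from ZNF577 to ZNF331 held 5 and 3.

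The densest windows of 1 Mb differed by list. The one with the most p63-closed sites on either chromosome was on chromosome 19, with 8 p63-closed and 0 opened sites between 52056147 and 52902010. It is also the longest run of p63-closed sites there, and only 3 of its sites fall inside the stretch from ZNF577 to ZNF331 as bounded here. The window with the most opened sites held 11, between 39148119 and 39749806, with 1 p63-closed site. Next came windows with 9 opened sites between 44022681 and 44670320, and 7 opened with 0 p63-closed between 33071337 and 33865535. On chromosome 22 the fullest opened windows held 8 sites between 23414751 and 23964405, 8 between 43355346 and 43723539, and 7 between 46319355 and 46944049. These 3 windows of 1 Mb held 0, 2 and 1 p63-closed sites. The most p63-closed sites in a window of chromosome 22 was 3, between 42854782 and 42897314, with 1 opened site in the window. Several windows tied next with 2 each, and those with the lowest starts are named. Their p63-closed sites lay between 24062759 and 24595120, with 1 opened site in the window, and between 26461752 and 26465807, with 4.

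Of the 59 windows that chromosome 19 spans, 28 held opened sites alone, 5 held p63-closed sites alone, 22 held both and 4 held none. Of the 35 on chromosome 22, 14 held opened sites alone, 1 held p63-closed sites alone, 18 held both and 2 held none. Windows of the other chromosomes were not counted in this way, so these numbers are not shown to be particular to chromosomes 19 and 22. The longest intervals without a site on chromosome 22 ran from 21393025 to 23414750 (2.02 Mb) and from 47481042 to 49221480 (1.74 Mb). On chromosome 19, apart from the pericentromeric one, the longest ran from 10296470 to 11958067 (1.66 Mb).

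Neighbouring sites tended to come from 1 list. On chromosome 19, 161 of 211 neighbouring pairs did (76.3%, 70.0 to 81.9%), and on chromosome 22, 84 of 122 (68.9%, 59.8 to 76.9%), against 61.3% on the other 21 chromosomes. An uneven mix raises this share by itself, and its part in the difference was not tested. Among pairs under 50 kb apart the shares were 82.3% and 87.9%. The share for such close pairs was not taken on the other 21 chromosomes, and the 61.3% covers pairs at any distance. The longest runs of opened sites held 13 sites, from 42900357 to 44670320 and from 53102146 to 56665829 on chromosome 19, and from 38136613 to 41118426 on chromosome 22. The longest run of p63-closed sites on chromosome 22 held 5, from 42854782 to 43352373, and 13 of its 19 runs were single sites. The next site after this run, at 43355346, was the first of 11 opened sites in a row, so a block of each list lay side by side there. On chromosome 19 the row of opened sites that ends at 44670320 was followed by 2 p63-closed sites (44904684 to 44906252 and 44951704 to 44953248).

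The lists also lay farther apart than elsewhere. From each p63-closed site the closest opened one was at a median distance of 224 kb on chromosome 19 and 188 kb on chromosome 22, against 119 kb on the other 21. An opened site lay within 50 kb of 11 of 61 p63-closed sites on chromosome 19 and 3 of 28 (10.7%) on chromosome 22, against 29.1% elsewhere. On chromosome 19, 50.8% of p63-closed sites had another p63-closed site within 50 kb, and on chromosome 22 17.9% (5 of 28), against 41.8% elsewhere. For opened sites near another opened site the shares were 39.1% and 49.5%, against 40.2%. Neighbouring sites of any list were also farther apart here, with a median gap of 131 kb on chromosome 19 and 134 kb on chromosome 22, against 94.0 kb elsewhere. The part that this sparseness and the low p63-closed density have in the distances above was not tested.

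Pairs with edges under 5 kb apart numbered 10 on chromosome 19 and 7 on chromosome 22. Of these, 1 joined the lists, on chromosome 22. There a p63-closed site (43349853 to 43352373) was followed 2972 bp later by an opened site (43355346 to 43356634). How often such close pairs join the lists was not counted on the other chromosomes. On chromosome 19, 9 of the 10 pairs were of opened sites, the closest with 211 bp between its edges at 39350866 and 39351078. The p63-closed pair there lay at 24097023 to 24098621 and 24100590 to 24101271. Both p63-closed pairs of chromosome 22 had consecutive catalogue numbers, and lay 1007 bp apart (26461752 to 26463373 and 26464381 to 26465807) and 619 bp apart (42854782 to 42856311 and 42856931 to 42858773).

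Median widths here were close to those elsewhere. The median opened site measured 1685 bp on chromosome 19 (quartiles 1255 and 2019 bp) and 1577 bp on chromosome 22 (1163 and 2075 bp), against 1595 bp on the other 21 chromosomes. The medians for p63-closed sites were 1584 bp (1341 and 1899 bp) and 1528 bp (1150 and 1815 bp), against 1530 bp. All 4 medians lay within the quartiles of the sites elsewhere. Sites over 2500 bp made up 7.08% on chromosome 19 and 13.8% on chromosome 22, against 11.4%.

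The 2 widest sites were opened sites of chromosome 22. The first, 4683 bp, ran from 39636589 to 39641271 and ranked 17 of 8154 in its list, and the next, 4025 bp, ran from 40903145 to 40907169. On chromosome 19 the widest opened site, 3702 bp, ran from 49055008 to 49058709. The widest p63-closed sites were 3665 bp on chromosome 22 (24591456 to 24595120) and 2978 bp on chromosome 19 (21879961 to 21882938). The latter lies in the stretch from ZNF101 to ZNF254.

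**Figure D5:**
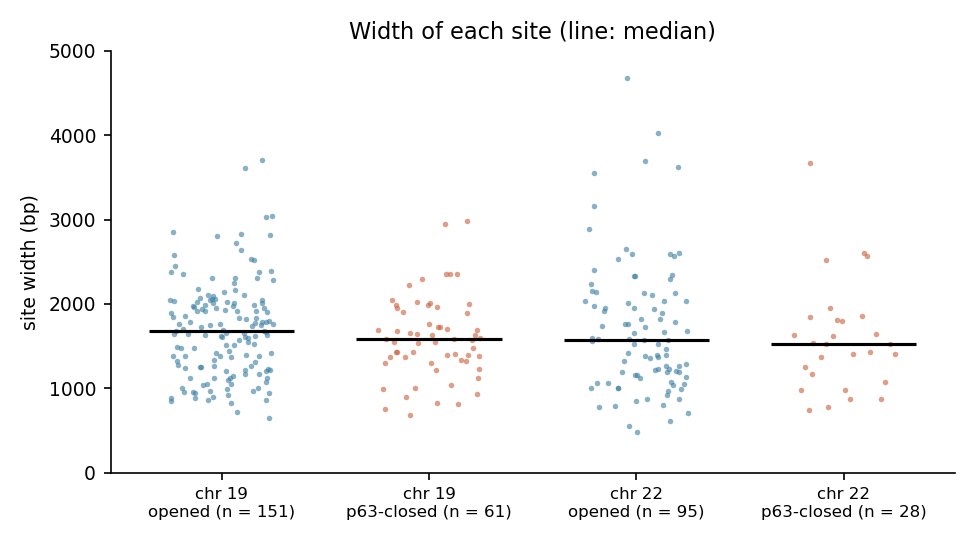
Each point is the width in bp of 1 site, by chromosome and list, and the line is the median. The medians run from 1528 to 1685 bp, and the widest point, 4683 bp, is an opened site of chromosome 22.

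Known gene loci were then examined by a set of names, 19 on each chromosome. Each was given as the stretch where general knowledge puts it on hg19, rounded outward to 0.1 Mb. A site counted here can thus lie up to about 0.1 Mb from the gene, and other genes may be closer to it. It is not shown to lie in the gene or to act on it. On chromosome 22, 13 of the 19 loci held a site, 8 with opened sites alone, 1 with p63-closed sites alone and 4 with both. On chromosome 19, 7 of the 19 held a site, 6 with 1 opened site each and 1 with a p63-closed site. The chromosome 22 loci include longer genes, so the counts are not comparable between the chromosomes. The loci were chosen with earlier results of these data known. How often other stretches of the same length hold a site was not counted, so the loci are not shown to be richer or poorer in sites.

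Among genes for secreted factors on chromosome 22, the locus of WNT7B, a WNT ligand expressed in epithelia, held 3 opened sites (46319355 to 46320875, 46355733 to 46357315 and 46371294 to 46373310) and 0 p63-closed ones. The locus of PDGFB, a growth factor for mesenchymal cells, held 2 opened sites, among them the widest site of the chromosome. LIF, a cytokine of the interleukin 6 family, had 1 opened site near it (30693895 to 30695215), and TIMP3, an inhibitor of matrix metalloproteinases, had 1 site of each list. FBLN1, which encodes an extracellular matrix protein, had 3 opened sites and 1 p63-closed site (45850472 to 45852011). The p63-closed sites at these loci were thus few, as they were on the chromosome as a whole (22.8%). TAFA5, a gene for a secreted protein, held 0 sites.

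Loci of cell structure and signalling genes followed. MYH9, the heavy chain of non-muscle myosin, held 2 opened sites 2368 bp apart (36724793 to 36726254 and 36728623 to 36729540). CELSR1, an atypical cadherin of planar cell polarity, held 3 opened sites, between 46850108 and 46944049. CRKL, an adaptor protein, held 3, between 21367952 and 21393024. The locus of TTC28 was the only one of chromosome 22 with p63-closed sites alone, 2 of them (28699956 to 28701761 and 28776636 to 28778046). SYN3, a synapsin gene within which TIMP3 lies, held 3 opened sites and 1 p63-closed site, which include those counted at TIMP3, and TBC1D22A held 1 site of each list.

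Transcription factor loci came next. On chromosome 22, TBX1, a T-box factor of the pharyngeal region, had 1 opened site (19724170 to 19726199) and PPARA, a nuclear receptor, had 1 (46531804 to 46533532). SOX10, a factor of neural crest, ISX and MN1 had 0 sites. On chromosome 19 the opened sites lay near NFIX (13164555 to 13165520), a nuclear factor I gene, TSHZ3 (31829811 to 31832263), a teashirt zinc finger gene, and CEBPA (33783594 to 33785902), a factor of epithelial and myeloid differentiation. There were 0 sites at TCF3, NFIC, KLF2, ZNF536, SIX5, FOXA3, MEIS3 and TEAD2.

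Of the remaining loci of chromosome 19, DNMT1, the maintenance DNA methyltransferase, held 1 opened site (10294218 to 10296469), and UHRF1, its partner at hemimethylated DNA, held 1 (4950364 to 4952889). PEPD, a dipeptidase gene, held 1 opened site (33863753 to 33865535). KCTD15, known as an inhibitor of AP-2 factors, had the only p63-closed site of the set on this chromosome (34370568 to 34371504). There were 0 sites at GADD45B, NOTCH3, TGFB1 and the kallikrein cluster KLK, whose proteases act in epidermal shedding. On chromosome 22, KREMEN1 and RBFOX2 also held 0. With each locus widened by 0.1 Mb at both ends, 5 of the 12 loci of chromosome 19 without a site gained one (GADD45B, NOTCH3, KLF2, TGFB1 and MEIS3), as did 4 of the 6 on chromosome 22 (MN1, KREMEN1, SOX10 and TAFA5). A locus without a listed site is not shown to be closed or unchanged.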

How the data were processed

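Chromatin accessibility was profiled in 8 samples. The authors deposited 2 lists of sites, each with 4 columns (chromosome, start, end and numbered name) and no score or signal. Per the submitters' processing notes, the build was hg19 (GRCh37), and the tools, given without version, role or order, were DESeq2, MACS2, Bowtie2, FastQC and SAMtools. Thresholds and any pooling were not given in the sources used here.

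Sites on chromosomes 19 and 22 were counted by their centres in bins of 5 Mb and windows of 1 Mb, and gaps were measured between edges. Catalogue entries are differences between site numbers, and at 6 jumps in the numbering, 1 of them on chromosome 22, they were estimated from distance. Intervals for shares, densities and ratios are exact at 95% (Clopper-Pearson, Poisson, or conditional binomial for ratios). Those for shares and ratios were checked on simulated sites that were independent of each other. That check therefore does not cover neighbouring sites that change together. No test was run, since sites are not replicates. The zinc finger stretches and loci use approximate positions from general knowledge; the order of the loci was checked against the RefSeq gene table (GRCh38.p14). No genome sequence of hg19 was used here. By rule, the text names every bin, the 3 fullest windows per list and chromosome, the widest sites, pairs under 5 kb apart, longest runs and gaps, and a list of loci, of which 1 is not reported here; chromosome 17, further close pairs and runs, and the neighbours of the rows of opened sites at 44670320 and 43355346 were added after their values were seen. The chromosomes, lists and rules were chosen with earlier results of these data known. Scripts ran in Python 3.11.15 with pandas 2.3.3, scipy 1.17.1 and numpy 2.4.6, and plots were drawn with matplotlib 3.10.9.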

Additional observations from a re-analysis of the deposited data

How the results depend on the processing

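No paired analysis was possible because neither list carries a value for any sample. Leaving out replicates was not possible either. Of 54 alternatives to 14 results, 48 stayed within the result's 95% interval or within 1.5 times its count. The alternatives reuse the same sites, so this count is not an independent check. The share outside the zinc finger stretches could not move when the stretch holding the most sites was left out, since those sites lie inside. The alternatives for the zinc finger stretches were added after the data had been seen. The 6 that moved were counts of bins of another size and closer pairs. Bins below 42.5% went from 9 on chromosome 19 to 20 with bins of 2 Mb and 4 with bins of 10 Mb, and from 8 on chromosome 22 to 14 and 5, since the number of bins changes with their size. Same-list neighbours rose to 82.3% and 87.9% for pairs under 50 kb apart, and the cause was not tested. Depth is unknown, and a stricter threshold could not be tried without scores.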
